A study of Arabidopsis thaliana with 30 samples.

Results

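LTI30 (AT3G50970) and COR47 (AT1G20440) encode dehydrins, and both transcripts were followed through germination of Arabidopsis thaliana seed by the probe sets annotated to them. Each gene was named by exactly 1 probe set, so the account rests on 2 of 22746 probe sets, or 2 of 13356 genes named by a single-gene probe set. Whole seed of the ecotype Col-0 was hybridized to 30 Affymetrix arrays, 3 for each of 10 groups. The groups, in time order, were freshly harvested seed, dry seed after 14 days of drying (15 days in the design text), seed after 1, 12 and 48 h of stratification on MS medium at 4 °C in darkness, and seed kept for a further 1, 6, 12, 24 and 48 h at 22 °C in continuous light of 100 µE. The labels name no mutation or transgene in any group, and every group from 1 h of stratification on had been surface sterilised, plated and imbibed. Cold, darkness and water uptake began together, as did light and warmth, so their parts in any difference cannot be told apart.

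Dehydrins are the group of late embryogenesis abundant (LEA) proteins that carry a lysine-rich repeat, the K segment. They are largely unfolded in solution, bind membranes and other cell components, and are known for accumulating when cells lose water, both in maturing seed and in leaves exposed to cold, drought or abscisic acid. LTI30, also called XERO2, is a basic, histidine-rich dehydrin that binds membranes and is known as low-temperature induced. COR47, also called RD17, is an acidic dehydrin named as a cold-regulated gene, and in leaves it belongs to the genes switched on by the CBF transcription factors.

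The 2 transcripts changed in opposite directions between 1 and 12 h of light. LTI30 was abundant in dry and cold-stratified seed, at 12105 to 14161 units of deposited intensity on the 12 arrays from harvest to 12 h of stratification. It was still at 6595 ± 459 at 1 h of light, and only 81.4 ± 18.2 units were left at 6 h of light (mean ± SD, n = 3 each). COR47 lay near the bottom of the scale on all arrays up to 1 h of light, at 3.91 to 24.0 units, and stood at 76.2 ± 17.7 at 6 h and 856 ± 35.2 at 48 h of light. Both were higher at 48 h than at 24 h of light, so the last step was the only step between neighbouring groups at which both rose. Intensities of different probe sets are not set against each other below, because probes differ in brightness. In whole seed, fewer cells that hold a transcript and less of it per cell cannot be told apart.

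**Figure D1:**
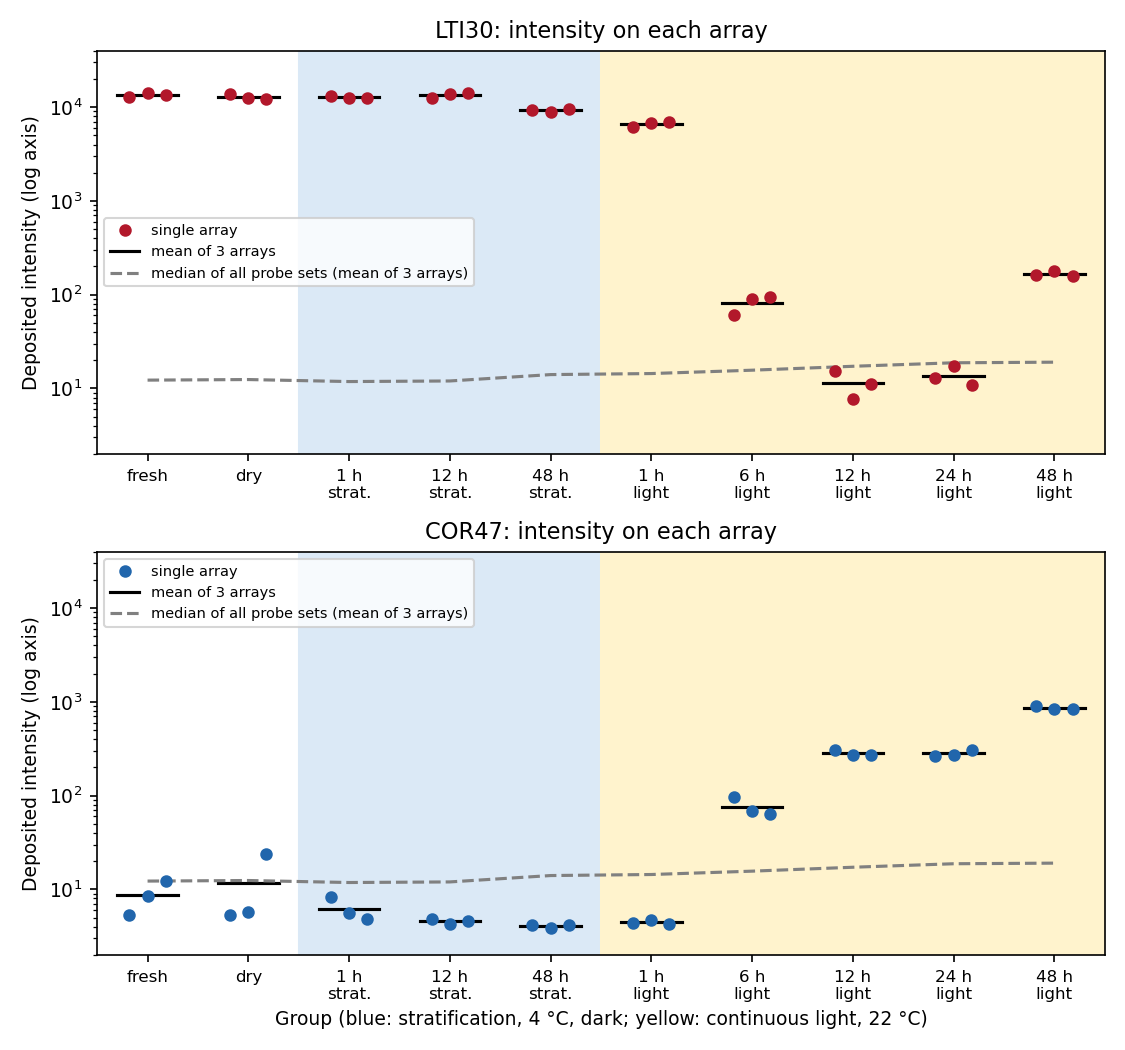
Deposited intensity (log axis) of LTI30 (upper panel) and COR47 (lower panel) on each of the 30 arrays, with the mean of the 3 arrays of a group as a bar and the median of all probe sets as a dashed line. LTI30 stays at 6079 units or more up to 1 h of light, drops below 100 at 6 h and returns to about 165 at 48 h, while COR47 lies mostly below the array median up to 1 h of light and then climbs in steps to 856.

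The median intensity of an array moved with the groups, averaging 12.0 units at 12 h and 14.1 units at 48 h of stratification and 19.1 units at 48 h of light. Replicates correlated at 0.985 to 0.998 over all probe sets on the log2 scale, and no pair of arrays was identical. Of the embryo markers, 2 of 12 were named by a probe set of their own. The oleosin gene OLEO5, whose product coats oil bodies, averaged 13362 ± 533 in dry seed and OLEO3 averaged 640 ± 66.9. The seed coat markers BAN and PRX36, 2 of 8, lay between 3.91 and 5.81 units on every array, and 0 of 6 endosperm markers were named. The labels do not say whether the replicates of a group come from separate seed lots or plates. The p-values therefore describe the spread among the arrays as labelled, pooled over the 10 groups, and this may be technical.

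Differences below are on the scale of log2(intensity + 16), given ± standard error from a limma model fitted to all 30 arrays and all 22746 probe sets. A gene was called changed, and is said to have risen or fallen, when its p, adjusted by Benjamini-Hochberg across the 22746 probe sets, was under 0.05 and its log2 difference reached 1 in size. The 12 comparisons were the 9 steps between neighbouring groups, 48 h of stratification against dry seed, and 48 h of light against 48 h of stratification and against dry seed. Several share a group, so their values are not independent.

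The comparison of dry with freshly harvested seed asked what drying and ripening changed. LTI30 had 13671, 12608 and 12105 units in dry seed, against 12983, 14161 and 13605 units in freshly harvested seed. The ranges overlapped, the log2 difference was -0.09 ± 0.11 with a 95% interval from -0.32 to 0.14, and the adjusted p was 0.96. COR47 had 5.35, 5.75 and 24.0 units in dry seed, against 5.37, 8.54 and 12.3 units in freshly harvested seed. A single array, replicate 3 of dry seed, gave the group most of its mean, and the difference of 0.11 ± 0.16 (adjusted p = 0.996) became -0.19 without it. Neither gene was called in this step, in which 0.321% of all probe sets were.

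LTI30 was not called changed in the first 12 h of stratification. After 1 h in the cold it had 13253, 12411 and 12413 units, within the range of dry seed, and the difference from dry seed was -0.01 ± 0.11 (adjusted p = 0.984). After 12 h it had 12686, 13672 and 14062 units, again overlapping the arrays of 1 h, with a difference of 0.09 ± 0.11 (adjusted p = 0.722). All probe sets called in these steps made up 0.514% and 3.77% of those tested, and at 12 h these were 2.88% higher and 0.888% lower.

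After 48 h in the cold LTI30 had 9317, 8822 and 9663 units, against 12686, 13672 and 14062 units at 12 h. The arrays did not overlap, and the mean was 68.8% of that at 12 h. The difference of -0.54 ± 0.11 passed on the adjusted p (2.51e-04) but not on size, and so was no call. With quantile normalization between arrays it was -0.14 (adjusted p = 0.336) and passed on neither. In the same step 8.35% of all probe sets were called lower, 10.1% were called higher and 42.2% passed on the adjusted p alone. Against dry seed the difference at 48 h of stratification was -0.46 ± 0.11 (adjusted p = 9.39e-04), likewise under the size threshold, in a comparison where 8.23% of probe sets were called lower and 62.3% passed on the adjusted p alone. With quantile normalization it was -0.08 (adjusted p = 0.598).

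COR47 stayed near the bottom of the scale in the cold. It had 8.33, 5.62 and 4.78 units at 1 h, 4.81, 4.29 and 4.59 at 12 h and 4.21, 3.91 and 4.16 at 48 h of stratification. All 9 of these arrays put it below the array's own median, which was 11.8 to 14.1 units. Between 1 h of stratification and dry seed COR47 differed by -0.26 ± 0.16 (adjusted p = 0.319), and by -0.41 to 0.04 with 1 array left out at a time. Its log2 difference between 12 h and 1 h of stratification was -0.11 ± 0.16 with a 95% interval from -0.45 to 0.23 (adjusted p = 0.769), and between 48 h and 12 h it was -0.03 ± 0.16, with an interval from -0.37 to 0.30 (adjusted p = 0.953). An increase of 1 on this scale lay outside both intervals. Their width comes from a spread pooled over all groups. The log2 SD of COR47 was 0.516 in dry seed, against 0.018 at 12 h and 0.012 at 48 h of stratification. In a fit of the pair of groups alone the adjusted p between 48 h and 12 h was 0.121. With 16 added, an increase of 1 at intensities this low stands for a much larger fold of intensity than it does at high ones. Against dry seed COR47 differed by -0.40 ± 0.16 at 48 h of stratification (adjusted p = 0.0378), short of the size threshold, and by -0.10 (adjusted p = 0.466) when replicate 3 of dry seed was left out. The adjusted p was 0.0719 with quantile normalization. At intensities this low the size rests on the constant added before taking logs: with 1 in place of 16 the same difference was -1.01 and was called.

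In the first hour of light and warmth neither gene was called changed. LTI30 had 6079, 6750 and 6958 units at 1 h of light, against 9317, 8822 and 9663 units at 48 h of stratification. These arrays did not overlap either, and the mean was 71.2% of that before the transfer, with a difference of -0.49 ± 0.11 (adjusted p = 0.00578) that was under the size threshold. With 1 added before taking logs the adjusted p was 0.105. COR47 had 4.42, 4.67 and 4.25 units, against 4.21, 3.91 and 4.16 units at 48 h of stratification, a difference of 0.02 ± 0.16 (adjusted p = 1.00). Of all probe sets 0.787% were called in this step, and 7.21% passed on the adjusted p alone.

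Between 1 and 6 h of light LTI30 fell more than any other probe set on the array. It had 60.5, 89.5 and 94.0 units at 6 h, against 6079, 6750 and 6958 units at 1 h of light. The mean at 6 h was 1.23% of that at 1 h, an 81.1-fold lower intensity, and the log2 difference of -6.10 ± 0.11 (adjusted p = 2.19e-20) ranked 1 of 22746 among falls. In this step 4.39% of probe sets were called lower. A fall as large as that of LTI30 is possible only for probe sets that were bright at 1 h of light, so most of those ranked could not have reached it. LTI30 kept rank 1 in 13 of 14 alternative analyses and was rank 2 with 1 added before taking logs. Several of these could not move the rank. The replicate block, the variance model and the fit of the pair of groups alone leave every difference unchanged. Median centring shifts all probe sets alike, and leaving out dim ones cannot lower rank 1. Among the 992 probe sets with at least 1000 units at 1 h of light, a bound chosen after these values were seen, the median share kept at 6 h was 88.0%, 13 kept less than 10%, LTI30 kept the least, and the next lowest kept 1.98%.

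Of the embryo markers, OLEO5 also fell in this step and OLEO3 was not called. OLEO5 had 2130 ± 111 units at 6 h, against 8266 ± 134 units at 1 h of light, a difference of -1.95 ± 0.11 (adjusted p = 3.34e-12). OLEO3 had 210 ± 27.8 units at 6 h, against 208 ± 15.9 units at 1 h of light. RNA quality controls moved slightly with the step: the 3' minus 5' difference of the actin control probe sets averaged 4.74 (log2) at 6 h, against 4.27 at 1 h of light, and was 3.15 to 4.74 over all groups. The GAPDH and ubiquitin controls were likewise highest at 6 h. The part of that difference in the fall of LTI30 was not tested.

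COR47 rose in the same step. It had 96.6, 68.1 and 64.1 units at 6 h, against 4.42, 4.67 and 4.25 units at 1 h of light. Every array at 6 h lay above every earlier array, and the log2 difference was 2.16 ± 0.16 (adjusted p = 2.62e-10), rank 91 among rises and between ranks 22 and 453 in the alternative analyses. The background for this call was 4.29% of probe sets called higher. The size depends on the added constant, at 3.80 with 1 and 1.03 with 64, and it was called under both.

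**Figure D2:**
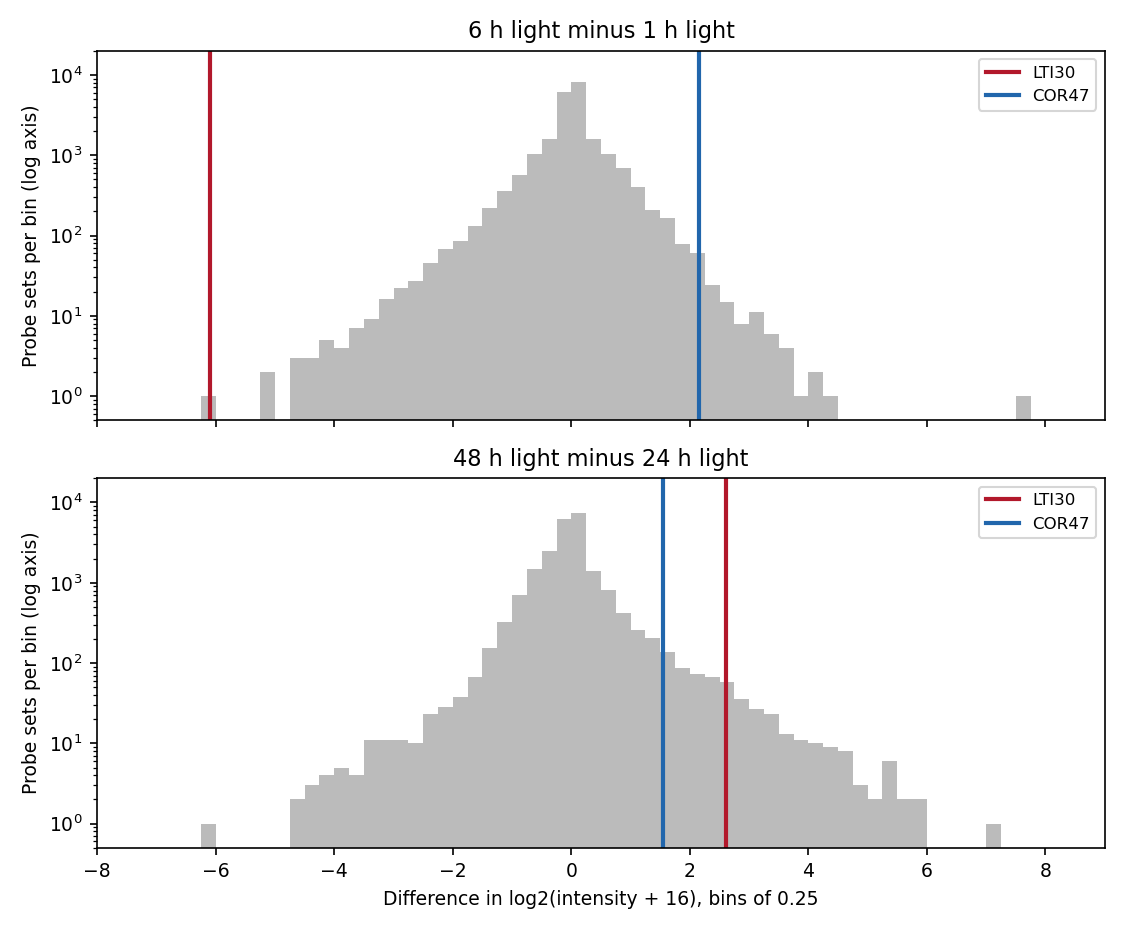
Number of probe sets (log axis) by their difference in log2(intensity + 16), in bins of 0.25, for 6 h minus 1 h of light (upper panel) and 48 h minus 24 h of light (lower panel), with the differences of LTI30 and COR47 as vertical lines. LTI30 is at the far left edge of all 22746 probe sets in the upper panel, at -6.10, and on the right side in the lower panel, at 2.61, while COR47 is on the right side in both, at 2.16 and 1.55. Dim probe sets cannot fall as far as bright ones on this scale.

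From 6 to 12 h of light both changes continued. LTI30 had 15.5, 7.74 and 11.2 units at 12 h, against 60.5, 89.5 and 94.0 units at 6 h, and all 3 arrays at 12 h were below their array's median. The difference was -1.82 ± 0.11 (adjusted p = 1.26e-11), with 1.59% of probe sets called lower in this step, and with 64 added before taking logs it was -0.94, under the size threshold. COR47 had 308, 274 and 273 units at 12 h, against 96.6, 68.1 and 64.1 units at 6 h. It rose by 1.72 ± 0.16 (adjusted p = 2.01e-08), where 2.75% of probe sets were called higher.

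Neither gene was called changed between 12 and 24 h of light. LTI30 had 13.0, 17.2 and 10.8 units at 24 h, against 15.5, 7.74 and 11.2 units at 12 h of light, with overlapping arrays and a difference of 0.11 ± 0.11, interval -0.11 to 0.34 (adjusted p = 0.549). COR47 had 267, 269.7 and 309.7 units at 24 h, against 308, 274 and 273 units at 12 h, with overlapping arrays and a difference of -0.01 ± 0.16, interval -0.35 to 0.32 (adjusted p = 0.974). In that step 7.22% of probe sets were called.

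From 24 to 48 h of light both rose. LTI30 had 160.3, 177 and 157 units at 48 h, against 13.0, 17.2 and 10.8 units at 24 h. All 3 arrays at 48 h lay above all 3 at 24 h, which were under their array medians, and the difference was 2.61 ± 0.11 (adjusted p = 4.56e-15). Its size depends on the added constant, at 3.52 with 1 and 1.56 with 64, and it was called under both. COR47 had 897, 838 and 834 units at 48 h, against 267, 269.7 and 309.7 units at 24 h. It was 3.03 times as high, with a difference of 1.55 ± 0.16 (adjusted p = 4.60e-08) and no overlap between the arrays. In this step 4.60% of probe sets were called higher and 3.04% lower.

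The return of LTI30 was small beside what had been lost. Its mean at 48 h of light was 1.29% of that in dry seed, and the difference from dry seed was -6.15 ± 0.11 (adjusted p = 7.95e-23), in a comparison that called 15.4% of probe sets lower. Against 48 h of stratification it was -5.68 ± 0.11 (adjusted p = 5.10e-22), where 16.5% were called lower. COR47 at 48 h of light was higher than at 48 h of stratification by 5.44 ± 0.16 (adjusted p = 1.66e-18), where 15.2% of probe sets were called higher, and higher than in dry seed by 5.04 ± 0.16 (adjusted p = 4.66e-18), where 19.7% were. Both comparisons of each gene use the same arrays of 48 h of light.

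**Figure D3:**
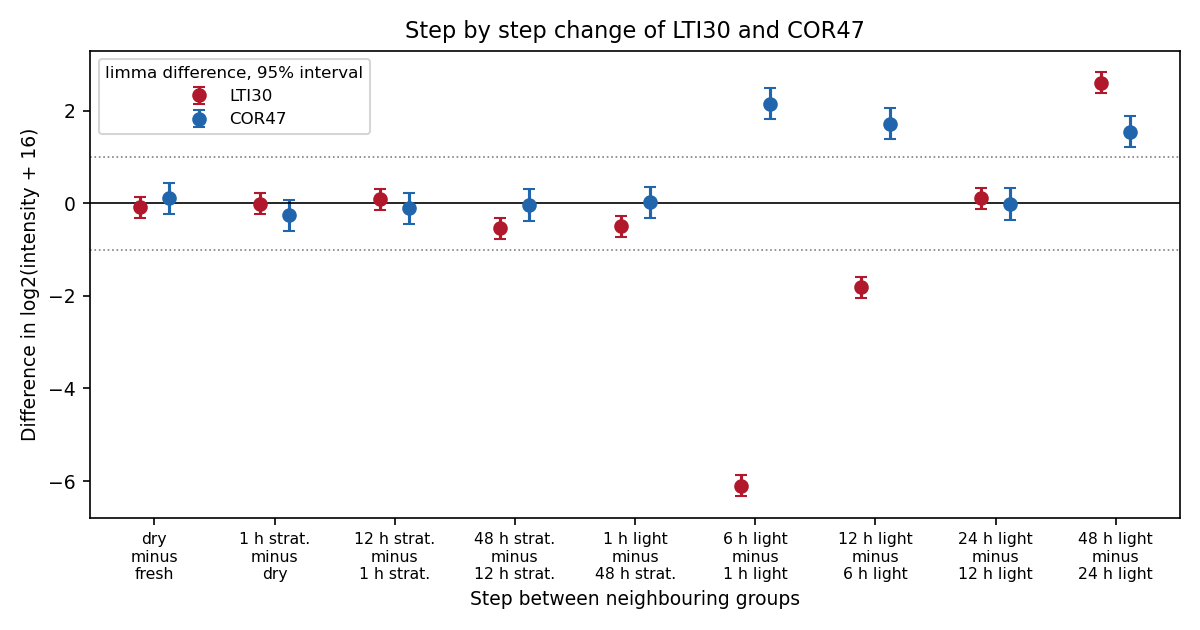
Difference in log2(intensity + 16) between each group and the one before it for LTI30 and COR47, as the limma estimate with its 95% interval, and dotted lines at the size threshold of 1. LTI30 has differences of -6.10 and -1.82 at 6 and 12 h of light and of 2.61 at 48 h, and COR47 rises by 2.16, 1.72 and 1.55 at 6, 12 and 48 h of light.

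By order of level, LTI30 was lowest at 12 and 24 h of light, groups whose arrays overlapped, then at 6 h of light, at 48 h of light, at 1 h of light and at 48 h of stratification, each with no overlap with the group below. The highest groups were, in ascending order, 1 h of stratification, dry seed, 12 h of stratification and freshly harvested seed, and each of these overlapped its neighbour. COR47 was lowest at 48 h of stratification, at 4.10 ± 0.160 units, followed without overlap by 1 h of light, at 4.45 ± 0.212. Then came 12 h and 1 h of stratification, freshly harvested seed and dry seed, each overlapping the one before. Above them were 6 h of light, 24 and 12 h of light, which overlapped, and 48 h of light. Before 6 h of light COR47 was under the array median on 16 of 18 arrays, the exceptions being replicate 3 of freshly harvested and of dry seed, and neither the order nor the lack of overlap among such low values has support from the test.

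The opposite course of the pair was also expressed within each array, as log2 LTI30 minus log2 COR47. This was fitted as a further row of the same model. Its changes are those of LTI30 less those of COR47, so they add no separate evidence of the opposite course. The within-array difference changed by -8.26 ± 0.22 between 6 h and 1 h of light (adjusted p = 1.00e-17) and by -3.54 ± 0.22 between 12 h and 6 h (adjusted p = 2.91e-11). It changed by 1.06 ± 0.22 between 48 h and 24 h of light (adjusted p = 5.15e-04), so that LTI30 rose by more than COR47 at the end, but this depends on the added constant, with a change of 0.15 (adjusted p = 0.51) when 64 was added. The change was also under 1 without replicate 3 of 24 h (0.92) or without replicate 2 of 48 h (0.998). An exact two-sided permutation test of 3 against 3 arrays gave p = 0.1 for each of these 3 steps, the smallest it allows. Across the 10 group means the genes correlated at -0.89 (Pearson), a description in which both genes are read from the same arrays.

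Of the 10 dehydrin genes of Arabidopsis listed for this comparison, 6 were named by a probe set of their own. ERD10, which lies next to COR47 on chromosome 1, and XERO1, which lies next to LTI30 on chromosome 3, were not, nor were RAB18 and ERD14. Genes not named here may still be measured by probe sets that were unnamed (8730) or named for several genes (503). The 4 named dehydrins besides LTI30 and COR47 also went both ways. HIRD11 (AT1G54410), a small histidine-rich dehydrin known to bind metals, was present in dry seed and increased in light, and AT2G21490 and AT4G39130 decreased. AT4G38410 stayed at 4.11 to 4.94 units on all arrays up to 12 h of light and reached at most 26.9 at 24 h.

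AT2G21490, a dehydrin of seed, was lost on another schedule than LTI30. It had 2843, 2914 and 2822 units at 48 h of stratification, against 14402, 14603 and 14402 units at 12 h, a fall of 2.33 ± 0.14 on the log2 scale (adjusted p = 2.23e-12). LTI30 was not called in that step. In light AT2G21490 fell at each step from 6 h on, with differences of -1.18 at 6 h, -1.89 at 12 h and -1.71 at 24 h. At 48 h it had 6.34, 7.46 and 6.22 units, all under the array median, where LTI30 had risen again.

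AT4G39130, like LTI30, had its largest fall between neighbouring groups from 1 to 6 h of light. It had 25.5, 34.1 and 23.4 units at 6 h, against 260.2, 259 and 283 units at 1 h of light, a difference of -2.70 ± 0.09 (adjusted p = 3.72e-16). It had already been lower at 12 h than at 1 h of stratification, at 213 ± 14.2 against 472 ± 32.7 units (-1.09 ± 0.09, adjusted p = 3.20e-09), where LTI30 was not called. At 48 h of light it had 5.22 to 5.38 units and was not called at that step.

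HIRD11 increased in light and was first called at 12 h. It had 314, 252 and 292 units at 6 h, against 201, 196 and 183 units at 1 h of light, with no overlap but no call, and 1707, 1628 and 1715 units at 12 h. The difference between 12 and 6 h was 2.50 ± 0.12 (adjusted p = 4.76e-13). It was above the array median on every array before 6 h of light, at 120 to 273 units. At 48 h it reached 9723, 8814 and 9730 units, a rise of 1.67 ± 0.12 over 24 h of light (adjusted p = 1.58e-10).

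Counted together, 3 of the 6 named dehydrins fell and 1 rose between 1 and 6 h of light, where 4.39% of all probe sets were called lower and 4.29% higher, with a median difference of -0.58 beside 0.00 over all probe sets. The falls include LTI30 and the only rise is COR47, so the split in direction at this step comes from the pair itself. Between 24 and 48 h of light 3 rose, LTI30, COR47 and HIRD11, and 1 fell, where 4.60% of all probe sets were called higher and 3.04% lower, with a median of 0.77 beside 0.00. At 48 h of light against 48 h of stratification 2 rose and 3 fell, where 15.2% of all probe sets were called higher and 16.5% lower, with a median of -1.58 beside -0.02.

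**Figure D4:**
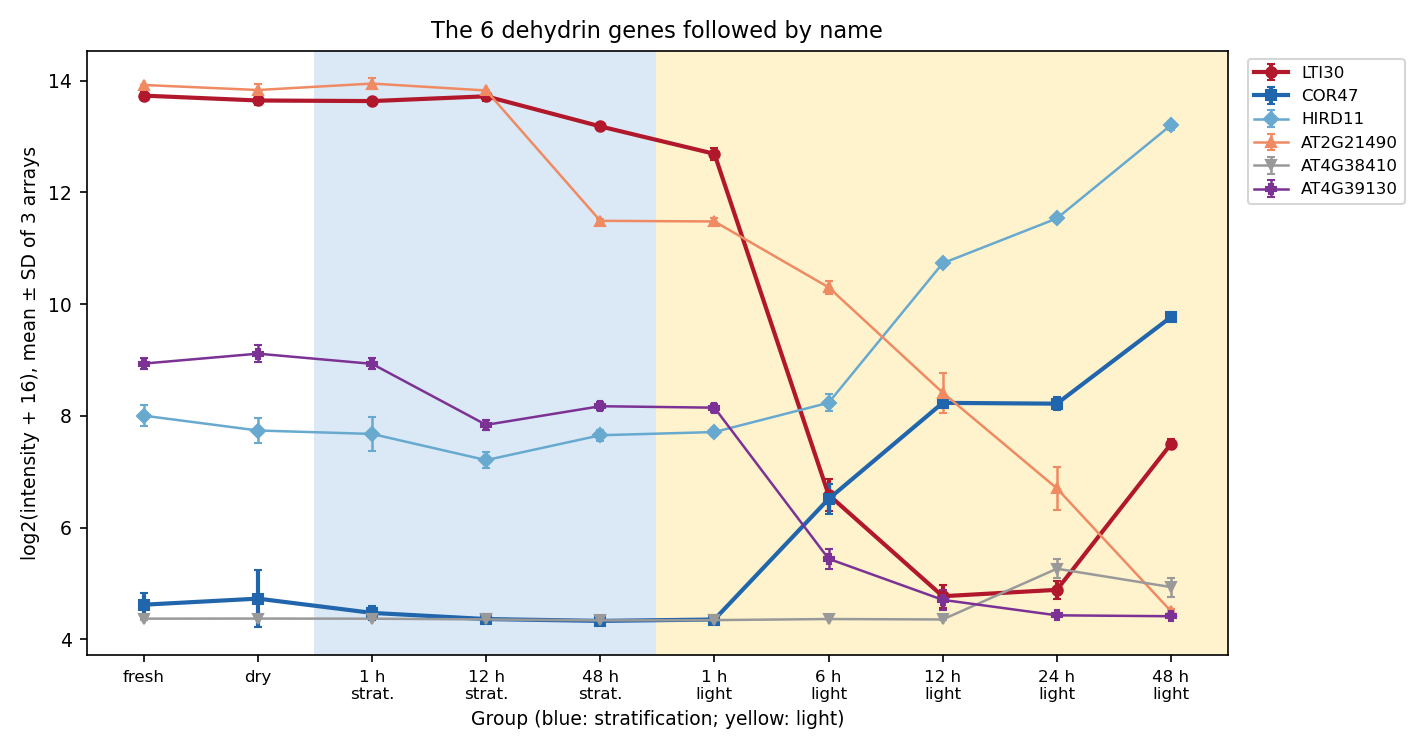
log2(intensity + 16), mean ± SD of 3 arrays, of the 6 dehydrin genes followed by name in the 10 groups. LTI30, AT2G21490 and AT4G39130 decline, LTI30 mostly between 1 and 6 h of light and with a return at 48 h, while COR47 and HIRD11 climb in light and AT4G38410 stays low.

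Other LEA genes, 19 of 29 on the list named by a probe set, mostly fell, and their values stand here beside those of LTI30. At 48 h against 12 h of stratification 11 of the 19 fell and 0 rose, where 8.35% of all probe sets were called lower (median -1.67, beside -0.01 over all probe sets), the largest falls being those of AT3G22490 (142 ± 8.25 units at 48 h, against 4818 ± 337 units at 12 h) and LEA25 (182 ± 34.1 units, against 4822 ± 817 units). At 6 h against 1 h of light 13 fell and 0 rose, where 4.39% of all probe sets were called lower (median -1.36, beside 0.00). At 48 h against 24 h of light 8 fell and 0 rose, where 3.04% of all probe sets were called lower (median -0.77, beside 0.00), and LTI30 rose. Over the whole of the light period 16 fell and 0 rose, where 16.5% of all probe sets were called lower (median -6.73, beside -0.02), most of all M17 (5.82 ± 0.157 units at 48 h of light, against 18528 ± 681 units at 48 h of stratification) and M10 (5.26 ± 0.237 units, against 16764 ± 660 units).

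Genes listed as cold regulated or as regulators of the cold response were named in only 5 of 25 cases. The chloroplast protection genes COR15A and COR15B had group means of 4.1 to 34.4 and 5.7 to 8.2 units and were called in none of the 12 comparisons. COR15A had 5.59 ± 0.473 units at 1 h of stratification, against 23.1 ± 14.9 units in dry seed (-0.77 ± 0.27, adjusted p = 0.0563). In that step 1 gene of the list was called with 1 added before taking logs or without replicate 2 of dry seed. ZAT10, a zinc finger repressor, rose at 12 h of stratification (4019 ± 24.9 units, against 553 ± 25.3 units at 1 h) and fell at 48 h (13.2 ± 2.02 units, against 4019 ± 24.9 units at 12 h). COR28, a cold-regulated gene that is also under clock control, had 759 ± 49.9 units at 48 h, against 2749 ± 147 units at 12 h of stratification, and COR27 had 138 ± 25.3 units, against 583 ± 90.6 units. At 48 h of stratification 3 of the 5 had fallen from 12 h and 0 had risen, where 8.35% of all probe sets were called lower and 10.1% higher. COR28 and COR27 were lower again at 48 h of light against 48 h of stratification, with differences of -4.98 and -2.12. COR27 did not decline steadily, at 20.7 ± 4.30 units at 6 h, 120 ± 17.3 at 12 h and 9.64 ± 1.68 at 24 h of light. Of 21 genes of synthesis of and response to abscisic acid, a hormone known to induce dehydrins, 0 were named. This does not mean that no probe set measured them.

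The gene on the other side of COR47, AT1G20430, had a different course. It rose between 1 and 6 h of light, at 403 ± 34.1 units against 125 ± 8.17 units (1.57 ± 0.16, adjusted p = 4.29e-08), as COR47 did. It had also risen between 12 and 48 h of stratification, at 104 ± 7.37 units against 37.5 ± 7.90 units, and at 48 h of light it had 169 ± 25.6 units, against 306 ± 31.2 units at 24 h, which was not called, where COR47 rose. PLP3a, the gene on the other side of LTI30, was not named by a probe set of its own.

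The genes whose 10 group means followed LTI30 most closely were AT2G38800 (Pearson r = 0.997), AT3G17410 (0.997), AT5G66590 (0.988), AT1G16210 (0.982), AT4G18280 (0.981) and AT4G14230 (0.980), out of 5088 single-gene probe sets with a group mean of at least 100 units. AT2G38800 had 62.6 ± 4.89 units at 6 h, against 655 ± 59.9 units at 1 h of light, and 74.6 ± 6.36 units at 48 h, against 12.7 ± 4.74 units at 24 h. AT4G18280 had 77.1 ± 2.68 units at 6 h, against 544 ± 77.6 units at 1 h of light, and 28.3 ± 3.22 units at 48 h, against 7.62 ± 2.57 units at 24 h. In AT3G17410 the span was narrower, at 140.3 ± 7.63 units at 6 h against 336 ± 37.0 units at 1 h of light. These genes lie on chromosomes 1 to 5, and 5 of the 6 were also among the 6 closest over the 30 arrays.

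For COR47 the closest were AT1G52220 (r = 0.994), AT1G53070 (0.993), ALDH11A3 (0.992), AT5G64460 (0.991), LCR68 (0.991) and AT1G07440 (0.990), and 4 of these 6 were also closest over the 30 arrays. AT1G52220 repeated the plateau of COR47, with 316 ± 46.3 units at 12 h, 319.9 ± 30.4 at 24 h and 667 ± 29.8 at 48 h of light. ALDH11A3 did not, with 357 ± 53.1 units at 12 h and 623 ± 37.3 at 24 h of light. LCR68, of a family of defensin-like peptides, was at 195 ± 19.4 units in freshly harvested seed and at 2235 ± 345.5 at 48 h of light. Correlations over 10 means that share a single large change are high for many genes: 184 of the 5088 had r of at least 0.95 with COR47, and 48 with LTI30.

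**Figure D5:**
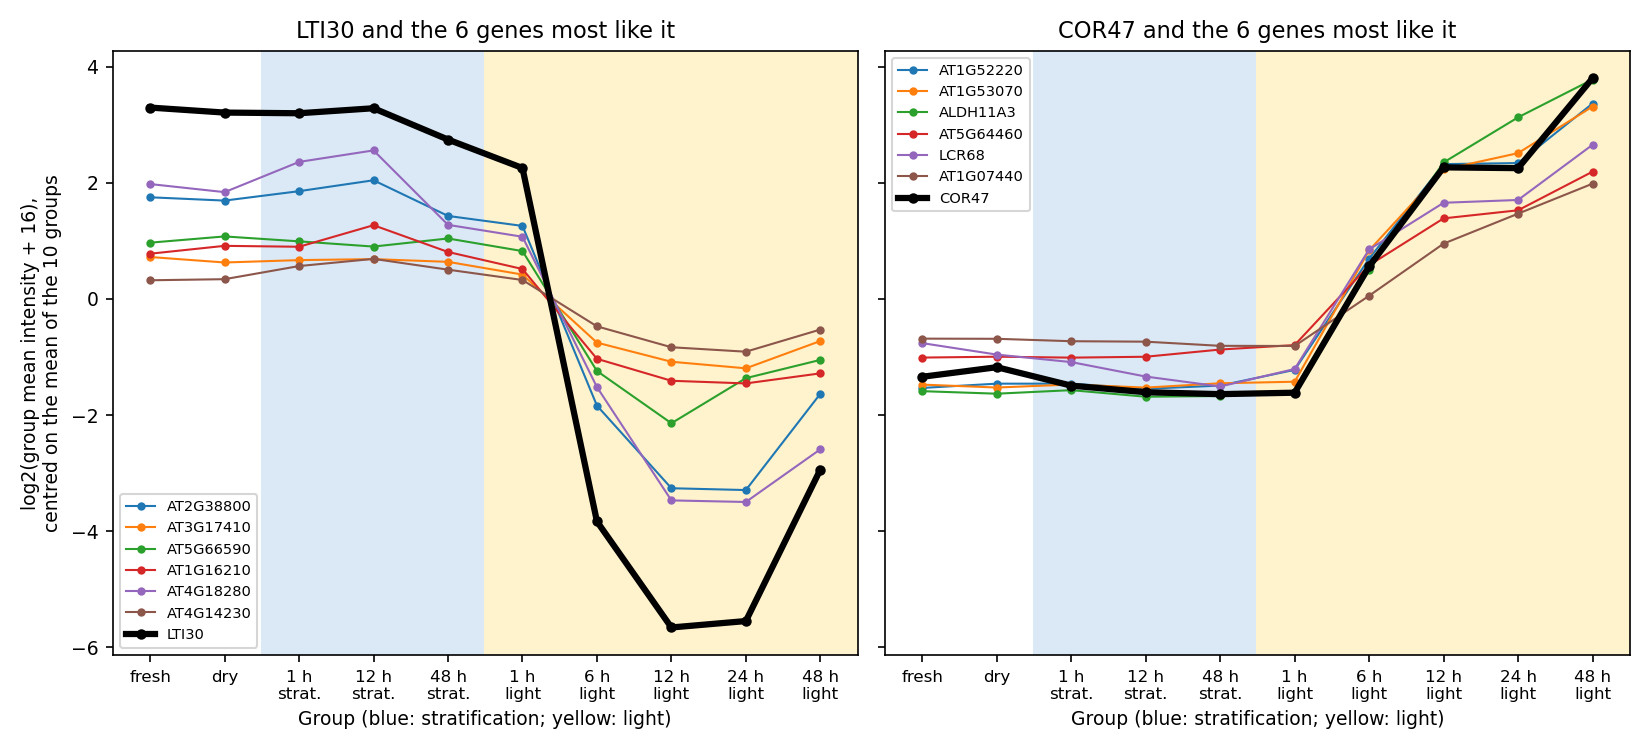
log2(group mean intensity + 16), centred on the mean of the 10 groups, of LTI30 (left, black) and COR47 (right, black) with the 6 genes most like each in Pearson correlation. The genes near LTI30 share its drop between 1 and 6 h of light but span a narrower range, and those near COR47 share its rise from 6 h of light.

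Of the 999 probe sets that were lower at 6 h than at 1 h of light, 54 (5.41%) were higher again at 48 h than at 24 h, and 18 of these name a single gene. Over all probe sets 4.60% were called higher in the last step, so this share was near the background. LTI30 had the largest fall of the 54, followed by AT4G30650 (-3.44 at 6 h and 2.33 at 48 h) and AT2G38800 (-3.09 and 1.67). FDH, the mitochondrial formate dehydrogenase gene, was also among them, at -1.35 and 1.41. Of the 975 probe sets higher at 6 h, 27 (2.77%) rose again at both 12 h and 48 h, and 15 of these were not called between 12 and 24 h. Over all probe sets 2.75% were called higher at 12 h, 4.60% higher at 48 h and 7.22% in either direction at 24 h. The share of all probe sets higher at both 12 and 48 h was not counted, so how unusual this sequence is was not tested. COR47 was 1 of the 9 named genes among the 15, with LHCB4.1, a light-harvesting protein gene, ATPC1, of the chloroplast ATP synthase, PSBW, of photosystem II, GSTU20, a glutathione transferase, AT4G02530, AT2G26500, AT1G52220 and the endoglucanase gene GH9C2. These groups of genes were formed after the courses of LTI30 and COR47 were known, and no test was made of their size or content.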

How the data were processed

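Per the labels' protocols, 80 mg of seed was plated, and 400 ng of total RNA was biotin-labelled for each one-colour array (30 in all). The authors deposited 1 processed intensity per probe set and array, on a linear scale. MAS5, RMA and Partek appear in the submitters' processing notes, without saying which of them gave these values. No detection calls were used.

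Of 22810 probe sets 64 controls were set aside. Names came from the platform annotation (13513 probe sets with 1 gene, 503 with several, 8730 unnamed) and the RefSeq gene table (13436 matched, TAIR10.1). The model was fitted with limma 3.58.1 in R 4.3.3 (lmFit, eBayes), with 1 mean per group, 20 residual and 1.21 prior degrees of freedom, on log2(intensity + 16), and was tested on simulated data. The simulation changed only probe sets that started well above the bottom of the scale, with the same spread in every group. Rises from near the bottom were not covered by it. Adding 16 understates changes of dim genes. Precision is limited by having 3 arrays in each group.

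Named genes were LTI30, COR47, the named dehydrins, their chromosome neighbours, the 6 closest by correlation, and the largest called changes of each list at 2 comparisons. Other genes of shared call sequences were chosen after their values were seen. The members and lists were chosen with earlier results of these data known. Alternatives covered the added constant, scaling, a mean intensity filter of 32, the arrays in the fit, a replicate block, the variance model and leaving out each array. Sequences were not used here.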

Additional observations from a re-analysis of the deposited data

How the results depend on the processing

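The differences of LTI30 and COR47 in 12 comparisons, and those of their within-array difference, gave 36 results with 504 alternative values, of which 499 stayed on the same side of the threshold with the same direction wherever a change had been called, and 33 of the 36 results did so throughout. The replicate block, the variance model and the fit of the pair of groups alone leave each difference unchanged, so only its adjusted p could move. The within-array results follow from those of both genes and are not separate. Below the size threshold, the adjusted p of LTI30 at 48 h of stratification was lost with quantile normalization, with differences of -0.14 from 12 h and -0.08 from dry seed, and that at 1 h of light with 1 added. The adjusted p of COR47 at 48 h of stratification against dry seed was lost with 64 added, quantile normalization, a fit of the pair of groups alone, and without replicate 3 of dry seed or any 1 array of 48 h. The 5 exceptions were these. With 64 added before taking logs LTI30 differed by -0.94 between 12 and 6 h of light and was no longer called, and the within-array difference changed by 0.15 between 48 and 24 h of light. With 1 added COR47 differed by -1.01 between 48 h of stratification and dry seed and was called. Leaving out 1 array at a time moved the within-array change between 48 and 24 h of light from 1.06 to between 0.92 and 1.17, and it was under 1 without replicate 3 of 24 h (0.92) and without replicate 2 of 48 h (0.998). The replicate block changed no call: LTI30 had -6.10 and COR47 2.16 at 6 h against 1 h of light, with adjusted p = 2.45e-18 and 1.21e-09. Same-numbered replicates deviated from their group means with a mean correlation of -0.01 over 135 pairs, over 0.1 in 20 of these. Of 30 arrays, 7 correlated best with their own number. On average no shift shared by same-numbered replicates was seen over all probe sets, which does not show that they are unpaired. Centring each array on its median moved the median difference of all probe sets between 48 h of light and dry seed from -0.05 to -0.36, and there LTI30 differed by -6.45 and COR47 by 4.74.

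Counts for gene lists moved by over 1.5 times in a few cases. With 64 added, other LEA genes called between 24 and 12 h of light were 5 in place of 8, cold-regulated genes 1 in place of 2 there and 1 in place of 2 at 6 h against 1 h of light, and dehydrins 0 in place of 1 at 12 h against 1 h of stratification. With 1 added, dehydrins were 2 in place of 1 at 24 h against 12 h of light, and 2 in place of 1 at 48 h of stratification against dry seed, as after median centring, and cold-regulated genes 1 in place of 0 at 1 h of stratification, as without replicate 2 of dry seed. Other LEA genes were 0 in place of 1 at 1 h of stratification when the fit held just the pair of groups. The background counts depended on the added constant as well: at 6 h against 1 h of light 1974 probe sets were called, 2927 with 1 and 1047 with 64, and at 48 h against 24 h of light 1739, 2840 and 898. Depth is unknown for arrays, and values of COR47 before 6 h and of LTI30 at 12 and 24 h of light lie too near the bottom of the scale for their folds to be read closely.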
